A study of Rattus norvegicus with 12 samples.

Results

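The arrays compared here were those of the pair of congenic rat lines whose introgressed segment lies on chromosome 3, Ept2 and Ept6, set against those of the lines Ept1 and Ept9, whose segments lie on other chromosomes. The members were chosen by the line named in the array titles alone, which gave 6 of the 12 arrays of the series for the chromosome 3 lines and left 6 arrays to compare with them. A difference was counted as shared only where Ept2 and Ept6 each moved the same way against the 6 Ept1 and Ept9 arrays. RNA of the anterior pituitary gland was hybridized to Affymetrix expression arrays, 3 arrays per line. Every line carries COP alleles on an ACI background, over a segment of chromosome 3 in Ept2 and in Ept6, of chromosome 6 in Ept1 and of chromosome 10 in Ept9. All rats were males that received an implant of 5 mg diethylstilbestrol (DES), a synthetic estrogen, at 9 weeks of age and were examined 12 weeks later, at 21 weeks, and all were injected with BrdU (50 mg/kg) 4 h before the end. No array of an ACI, COP or untreated rat was used here, so a value in Ept2 or Ept6 was read only against lines that carry COP alleles elsewhere and that received DES as well. The labels do not settle how many independent animals or pools stand behind the 3 arrays of a line, so p-values measure the spread between arrays, which may be technical in part. With the line as the unit, 2 lines against 2 cannot reach a two-sided p below 0.333 in an exact permutation test.

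The anterior pituitary holds lactotrophs, which make prolactin, beside cells that make growth hormone, the gonadotropins, thyrotropin and corticotropin, and a net of folliculostellate cells joined by gap junctions. Estrogens drive transcription of the prolactin gene and the division of lactotrophs, and the ACI rat is known for the large, prolactin-rich pituitary it forms under prolonged estrogen treatment, whereas the COP rat responds less. A congenic line isolates 1 stretch of donor genome, so that genes within the segment can differ through their own sequence, while a gene elsewhere can differ through the action of those genes or through donor sequence left outside the segment. Probe sets on an array also respond to sequence differences between the strains within the stretch they hybridize to, so a single probe set does not tell transcript level from probe binding.

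The glands of all 4 lines had the transcripts that define this tissue. The probe set for prolactin (Prl) gave signals of 42835 to 51767 in Ept2 and Ept6 and of 41979 to 46327 in Ept1 and Ept9, and those for galanin (Gal), growth hormone (Gh1) and the common glycoprotein hormone subunit (Cga) were among the brightest as well. Correlations of log2 signals between arrays ran from 0.958 to 0.970. The log2 difference between the 3' and the 5' probe sets of Gapdh, a measure of RNA degradation, was 0.258 ± 0.142 in the chromosome 3 lines and 0.229 ± 0.0482 in the others (SD, n = 6 each; exact two-sided permutation p = 0.641). Within the chromosome 3 lines it was 0.379 ± 0.0567 in Ept2 and 0.137 ± 0.0589 in Ept6 (SD, n = 3 each), so the pair stood on either side of the other lines in this measure, and its part in the differences between Ept2 and Ept6 below was not tested.

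Few probe sets separated the chromosome 3 lines from the others, and nearly all that did were set by 1 line. Of 31042 probe sets tested with limma on log2(signal + 16), 9 passed an adjusted p of 0.05 for the difference between the mean of Ept2 and Ept6 and the mean of Ept1 and Ept9 and moved the same way in both lines (0.029% of those tested), 8 of them higher (0.0258%) and 1 lower (0.00322%) in the chromosome 3 lines. At an unadjusted p of 0.05, 1890 probe sets passed (6.09%). The 9 comprised 5 named genes, Ddx5, Cwc25, Kdm3a, Sardh and Fubp3, and 4 probe sets to which the platform annotation used here assigns no gene. In 1 of the 9, an unnamed probe set, all 6 arrays of the chromosome 3 lines lay above all 6 of the others. In 3 the difference came from a low Ept9 (Ddx5 and Cwc25) or a low Ept1 (Kdm3a), in 4 from Ept2 or Ept6 standing apart from the 3 other lines, and for Sardh Ept6 was high while Ept1 was low. Where the 12 arrays were fitted as 2 groups of 6 with no mean per line, only the unnamed probe set passed.

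**Figure D1:**
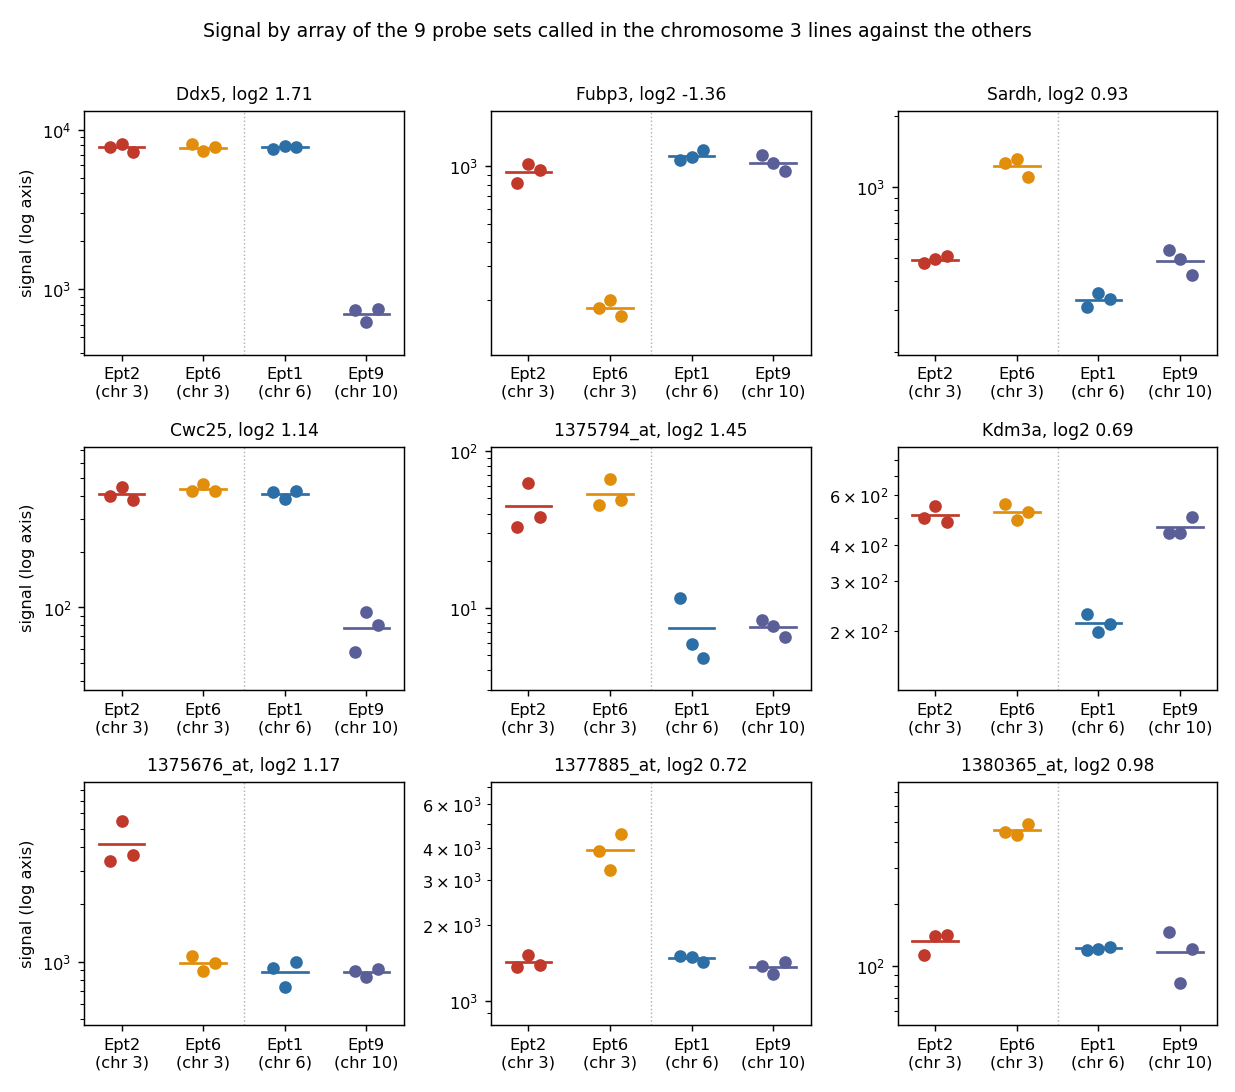
Signal (log axis) of the 9 probe sets that passed the adjusted threshold, 1 panel each, for the 3 arrays of each line; points are arrays, short bars are line means, and the dotted line parts the chromosome 3 lines (left) from Ept1 and Ept9 (right). The titles give the log2 difference of the line means. Only for 1375794_at do all 6 single arrays of the chromosome 3 lines lie beyond all 6 of the others; Ddx5 and Cwc25 are low in Ept9, Kdm3a is low in Ept1, and the remaining 5 have Ept2 or Ept6 standing apart.

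The probe set shared by both lines, 1375794_at, was dim. Its signals were 32.6, 62.4 and 38.1 in Ept2 and 45.2, 66.8 and 48.7 in Ept6, against 11.6, 5.9 and 4.8 in Ept1 and 8.4, 7.7 and 6.5 in Ept9. The groups did not overlap, and the highest of the other arrays was at 11.6 where the lowest chromosome 3 array was 32.6. The log2 difference was 1.45 ± 0.14 (SE; adjusted p = 0.00695), with 1.34 for Ept2 and 1.56 for Ept6 against the 6 other arrays. Ept2 minus Ept6 was -0.22, with a 95% interval of -0.66 to 0.21. The size depends on the value added to every signal before the logarithm: it was 2.56 with 1 and 0.65 with 64 in place of 16, and the call held with both (adjusted p = 0.00849 and 0.0176).

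Ddx5 and Cwc25, both on chromosome 10, where the segment of Ept9 lies, were called because Ept9 was low. Ddx5 encodes a DEAD-box RNA helicase that acts in splicing and as a coregulator of nuclear receptors, estrogen receptor alpha among them. Its called probe set gave 7838, 8180 and 7298 in Ept2 and 8135, 7352 and 7758 in Ept6, against 7558, 7927 and 7826 in Ept1 and 743.4, 623.3 and 753.3 in Ept9. The Ept1 arrays thus fell within the range of the chromosome 3 lines, and the log2 difference of 1.71 ± 0.07 (SE; adjusted p = 1.83e-05) came from Ept9. A second Ddx5 probe set with signals of similar size differed by -0.17 in the opposite direction and did not pass the test (adjusted p = 0.770). There Ept9 was highest, at 9153, 9153 and 9243, against 7269 to 8567 in the other lines. The direction of Ddx5 in Ept9 thus depended on the probe set read. Cwc25, a factor of the spliceosome, gave 379.0 to 459.0 in the chromosome 3 lines, 383.1 to 423.4 in Ept1 and 57.5, 94.5 and 80.1 in Ept9 (log2 difference 1.14 ± 0.10, SE; adjusted p = 0.00517).

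Kdm3a, a histone H3 lysine demethylase that also serves as a coactivator of nuclear receptors, was called because Ept1 was low. Its gene lies on chromosome 4, outside the chromosomes of all 4 segments. Signals were 501.1, 548.9 and 483.4 in Ept2 and 558.0, 491.1 and 523.5 in Ept6, against 228.4, 197.2 and 210.8 in Ept1 and 443.2, 443.5 and 501.8 in Ept9. Ept9 overlapped the chromosome 3 lines at its highest array, and the log2 difference was 0.69 ± 0.07 (SE; adjusted p = 0.0161). The call was lost without array 2 of Ept1, array 2 of Ept2, array 1 or 3 of Ept6 or array 1 or 2 of Ept9 (adjusted p 0.0533 to 0.0724).

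Both called genes on chromosome 3, Sardh and Fubp3, were carried by Ept6. Sardh encodes sarcosine dehydrogenase, a mitochondrial enzyme of choline and one-carbon metabolism. Its signals were 474.4, 492.3 and 508.8 in Ept2 and 1262, 1311 and 1105 in Ept6, against 310.2, 353.8 and 333.9 in Ept1 and 539.4, 492.5 and 424.2 in Ept9. All Ept6 arrays exceeded every other array, while Ept2 lay among the Ept9 arrays. The log2 difference from the 6 other arrays was 0.28 in Ept2 and 1.57 in Ept6 (0.93 ± 0.08 for both, SE; adjusted p = 0.00517), and the difference Ept2 minus Ept6 was -1.29 (95% interval -1.55 to -1.03; adjusted p = 0.00425). A second Sardh probe set had 0.46 in Ept2 and 1.55 in Ept6 and did not pass in the pooled test (adjusted p = 0.597).

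Fubp3, a single-stranded DNA-binding protein of the far upstream element family, gave 820.3, 1032 and 953.4 in Ept2 and 180.8, 198.8 and 164.0 in Ept6, against 1084, 1116 and 1218 in Ept1 and 1147, 1046 and 945.9 in Ept9. Ept6 lay far below all other arrays and Ept2 overlapped Ept9. The log2 differences were -0.22 in Ept2 and -2.49 in Ept6, and Ept2 minus Ept6 was 2.27 (95% interval 1.99 to 2.54; adjusted p = 0.000194). A second Fubp3 probe set went the other way in Ept6, at 0.86 (0.08 in Ept2; adjusted p of the pooled difference = 0.453), so the direction of the gene in Ept6 depended on the probe set read. The 2 unnamed probe sets 1377885_at and 1380365_at were high in Ept6 alone, at 3281 to 4573 and 432.8 to 488.8, against 1284 to 1509 and 82.1 to 146.3 in Ept1 and Ept9, and Ept2 lay near Ept1 and Ept9 (log2 difference 0.00 and 0.14). The fourth, 1375676_at, was high in Ept2 alone, at 3367, 5498 and 3620, and lay at 894.8 to 1073 in Ept6, against 740.9 to 991.0 in Ept1 and Ept9. The calls of these 3 probe sets did not hold when single arrays were left out: 1375676_at passed without each of 4 arrays (array 3 of Ept1 and arrays 1, 2 and 3 of Ept2), 1380365_at without each of 2 (arrays 1 and 2 of Ept9) and 1377885_at without 1 (array 2 of Ept6), and without any other array the adjusted p was 0.0533 to 0.157.

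In 5 of the 9 called probe sets Ept2 and Ept6 differed from each other after adjustment. Across the array, 33 probe sets differed between Ept2 and Ept6 (0.106%), 12 between Ept2 and the 6 arrays of Ept1 and Ept9 (0.0387%), and 10 between Ept6 and the same 6 arrays (0.0322%). The counts were not tested against each other.

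Chromosome 3, which carries the segments of both lines, was then read in gene order. The annotation placed 3442 genes on it, of which 1072 were measured by 1565 probe sets. The 2 pooled calls there made up 0.128% of its probe sets, against 0.0156% (3 calls) on other chromosomes, and 2 of the 5 called genes, or 40%, lay on chromosome 3. At an unadjusted p of 0.05 the pooled comparison took in 7.86% of the probe sets on chromosome 3 and 5.51% elsewhere. For Ept2 against the other arrays the shares were 12.8% on chromosome 3 and 8.73% elsewhere, and for Ept6 they were 6.2% and 5.87%.

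On chromosome 3 the probe sets of small p lay mostly in different parts of the gene order for Ept2 and Ept6, given as counts with no test. At an unadjusted p of 0.001, a bound chosen after the values were seen, 31 probe sets of chromosome 3 passed for Ept2 (1.98%, against 0.406% on other chromosomes) and 5 for Ept6 (0.319%, against 0.234%). Of the probe sets for Ept2, 8 lay among genes 1501 to 2000 of the order and 13 among genes 2001 to 2500, or 4.57% and 4.17% of the probe sets there, against 1 each among genes 1 to 500 and 501 to 1000. Of those for Ept6, 1 lay among genes 1 to 500 and 4 among genes 501 to 1000, and none of the 1129 probe sets beyond gene 1000 passed. These 5 belonged to 4 genes, as Fubp3 had 2 probe sets of opposite direction. Their share was near that on other chromosomes, so they do not define a stretch for Ept6. For Ept2, the phosphatase gene Ptprj (gene 1646), Iftap (gene 1777) and the protease inhibitor gene Spint1 (gene 2062) passed the adjusted test (3 probe sets, 0.192% of those on chromosome 3, against 0.0208% on other chromosomes). For Ept6, Sardh (gene 416) and Fubp3 (gene 520) passed it (2 probe sets, 0.128%, against 0.026%). Between Ept2 and Ept6 directly, 6 probe sets of chromosome 3 passed (0.383%, against 0.0677%).

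None of the calls of Ept2 on chromosome 3 passed in Ept6. Spint1, which inhibits the serine protease that activates hepatocyte growth factor, gave 2393, 2556 and 2534 in Ept2 and 1228, 1212 and 1203 in Ept6, against 1077 to 1401 in Ept1 and Ept9. The log2 difference from the 6 other arrays was 0.96 in Ept2 (adjusted p = 0.00475) and -0.07 in Ept6, and the lines differed by 1.03 (adjusted p = 0.00524). Ptprj, a receptor-type tyrosine phosphatase that restrains growth factor signalling, gave 179.0, 148.8 and 178.9 in Ept2 and 439.9, 361.2 and 349.4 in Ept6, against 356.3 to 557.1 in Ept1 and Ept9, or -1.22 in Ept2 (adjusted p = 0.0239) and -0.12 in Ept6. Ptprj also differed between the lines (Ept2 minus Ept6 -1.11; adjusted p = 0.0448). Iftap was at -0.60 in Ept2 (adjusted p = 0.0462) and -0.11 in Ept6, and the difference between the lines missed the threshold (adjusted p = 0.0985). Harbi1 (gene 1692) gave 779.7, 796.6 and 1033 in Ept2 and 21.7, 153.1 and 120.2 in Ept6, against 105.2 to 162.0 in Ept1 and Ept9, and passed between Ept2 and Ept6 (3.20; adjusted p = 0.0440).

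**Figure D2:**
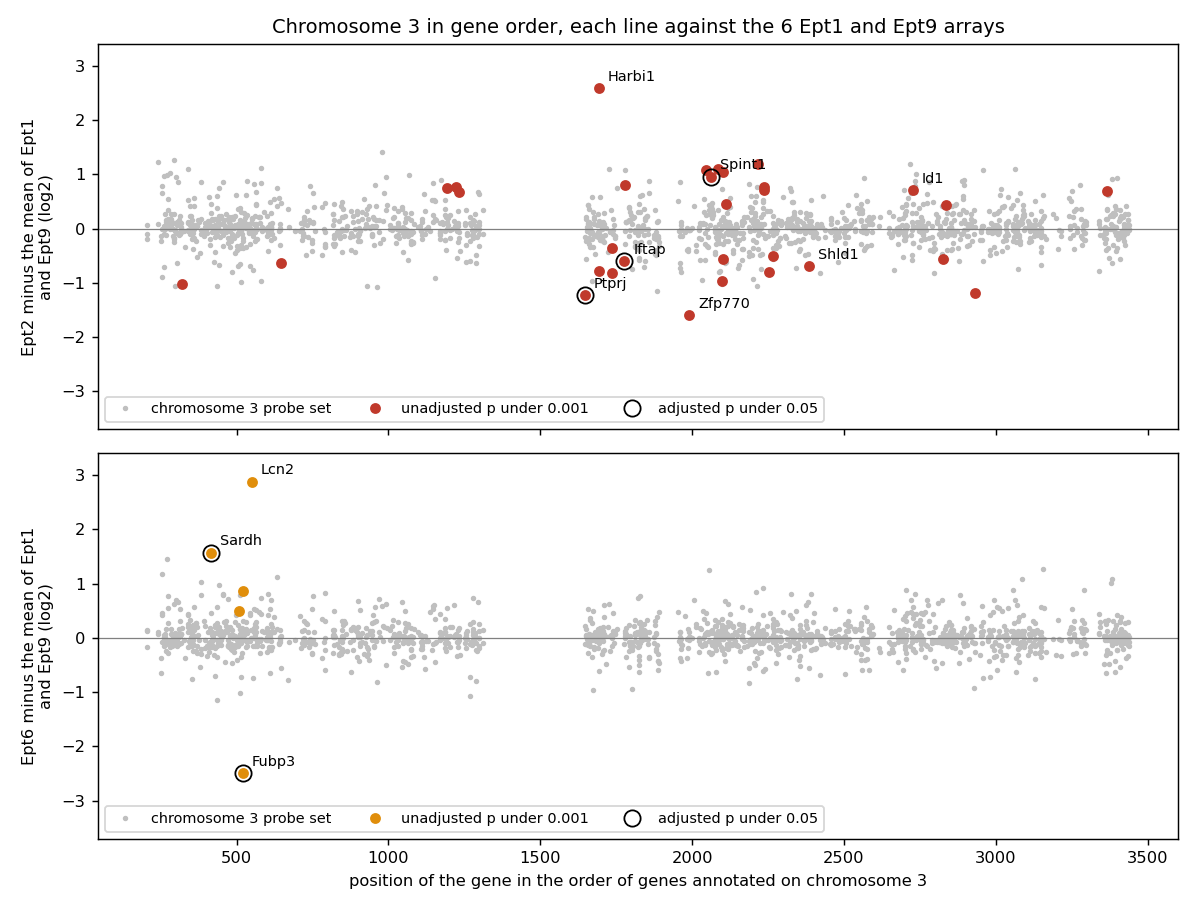
Log2 difference of Ept2 (upper panel) and Ept6 (lower panel) from the mean of Ept1 and Ept9 for every probe set with 1 gene on chromosome 3, placed by the rank of the gene along the chromosome; coloured points have an unadjusted p under 0.001 and rings an adjusted p under 0.05. Both panels use the same 6 arrays as comparator. The 31 coloured points of Ept2 are densest between genes 1501 and 2500, and the 5 of Ept6, from 4 genes, all lie before gene 1000.

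Lcn2 (gene 550), which encodes the siderophore-binding protein lipocalin 2, lay near Fubp3 and was high in Ept6: 184.9, 170.7 and 183.8 there and 6.1, 47.6 and 4.3 in Ept2, against 2.1 to 44.0 in Ept1 and Ept9. The difference was 2.88 in Ept6 and 0.20 in Ept2, and neither passed the adjusted test over all probe sets (adjusted p = 0.126 in Ept6). The Ept6 arrays did not overlap the 9 others. Lcn2 had been listed among genes of folliculostellate cells and of chromosome 3, and its pooled value of 1.54 is the largest in both lists through Ept6 alone.

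What the chromosome 3 lines had in common was next sought without the adjusted threshold, among probe sets whose 6 arrays all lay above or all below the 6 arrays of Ept1 and Ept9. There were 67 (0.216%), of which 46 were higher (0.148%) and 21 lower (0.0677%). Of the 924 ways to choose 6 of 12 arrays, 1 takes the 6 highest and 1 the 6 lowest. The share of 0.216% is no larger than exchangeable arrays would give, so the count does not show that the lines share a difference. Of these, 49 were assigned to 1 gene, 33 higher and 16 lower. Their log2 differences were 0.13 to 1.45 in size with a median of 0.49, and 21 had a mean signal under 65. None of the 67 differed between Ept2 and Ept6 after adjustment, and 4 did at an unadjusted p of 0.05. Over all probe sets only 0.106% differed after adjustment, and the choice already asks that both lines lie on 1 side. The lack of such differences among the 67 therefore does not show that the lines agree. One of the 67, 1375794_at, passed the adjusted test of the pooled difference. Since arrays that do not overlap are what chose them, these genes are described below by their values, with the adjusted p over all probe sets, and none of the named genes passed it.

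On chromosome 3 the share of such probe sets was 0.256%, against 0.234% on other chromosomes, and 4 of the 49 genes lay there: Id1, Shld1, Arhgap1 and Dido1. Id1 (gene 2726) encodes a helix-loop-helix protein without a DNA-binding domain, which holds back differentiation and is a direct target of bone morphogenetic protein (BMP) signalling. Its signals were 525.2, 478.2 and 455.1 in Ept2 and 454.4, 396.9 and 479.2 in Ept6, against 395.2, 288.8 and 277.0 in Ept1 and 273.4, 241.0 and 292.0 in Ept9. The lowest chromosome 3 array, at 396.9, stood just over the highest of the others, at 395.2, and the remaining values were well apart. The log2 difference was 0.64 ± 0.10 (SE; adjusted p = 0.145), with 0.71 in Ept2 and 0.58 in Ept6, and the lines differed from each other by 0.13 (95% interval -0.20 to 0.46).

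The gene named Nog lay on chromosome 10 and encodes noggin, the secreted antagonist that binds BMPs and keeps them from their receptors. It had the smallest p among the lower genes with non-overlapping arrays. Its signals were 724.7, 776.7 and 741.1 in Ept2 and 738.5, 662.0 and 717.0 in Ept6, against 825.7, 791.4 and 861.4 in Ept1 and 1179, 1134 and 1202 in Ept9. Ept9, whose segment lies on the same chromosome as the gene, stood above the 9 other arrays, and the chromosome 3 lines lay below Ept1 by little. Ept2 minus Ept1 was -0.14 and Ept6 minus Ept1 -0.22, whereas the differences from Ept9 were -0.64 and -0.72. The log2 difference was -0.43 ± 0.06 (SE; adjusted p = 0.105), with -0.39 in Ept2 and -0.47 in Ept6, and Ept2 and Ept6 differed by 0.08 (95% interval -0.12 to 0.28).

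The promoters of these 2 genes are shown because a BMP target and a BMP antagonist were among the few genes with non-overlapping arrays, one in each direction. Neither gene passed the adjusted test, most of the Nog difference lay with Ept9, and a difference in BMP signalling was not tested. The sequences are those of RefSeq on the GRCr8 assembly, from 250 bases before to 50 after the annotated start, at chr3:161671314-161671613 on the plus strand for Id1 and chr10:74627452-74627751 on the minus strand for Nog, and they are reference sequence, not that of ACI or COP. Capitals mark matches on either strand to CCAAT, the box bound by NF-Y, and to GGCGCC, a GC-rich element that BMP-activated SMAD proteins can bind.
Id1: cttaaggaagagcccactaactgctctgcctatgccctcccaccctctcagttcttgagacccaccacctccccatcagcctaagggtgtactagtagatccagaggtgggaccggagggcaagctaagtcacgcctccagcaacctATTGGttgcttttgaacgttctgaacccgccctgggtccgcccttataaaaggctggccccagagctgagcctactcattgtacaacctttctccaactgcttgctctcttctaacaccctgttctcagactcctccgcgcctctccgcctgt
Nog: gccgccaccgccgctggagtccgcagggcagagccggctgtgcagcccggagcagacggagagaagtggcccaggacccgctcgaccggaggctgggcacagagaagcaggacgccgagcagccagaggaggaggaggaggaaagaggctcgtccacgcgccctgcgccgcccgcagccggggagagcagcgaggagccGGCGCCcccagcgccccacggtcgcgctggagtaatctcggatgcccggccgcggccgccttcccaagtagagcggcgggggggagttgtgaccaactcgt
The Id1 window held 1 CCAAT box on the reverse strand, and the Nog window 1 GGCGCC. Among all 33469 promoters of the table, 37.5% held CCAAT and 11.02% held GGCGCC, and among 21 promoters found for the 25 genes of the text that were looked for, 10 held the first and 4 the second (Gabbr2, C7h12orf75, Plch2 and Nog). The palindromic estrogen response element, GGTCA and TGACC with 3 bases between, was in none of the 21 and in 0.0269% of all promoters. A match is a stretch of letters and was not tested for binding.

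Pbk, Orc6 and Shld1 were among the genes on the lower side. Pbk, a kinase active in mitosis, gave 248.6, 297.7 and 337.5 in Ept2 and 314.7, 285.8 and 245.1 in Ept6, against 421.9, 451.4 and 390.1 in Ept1 and 472.9, 517.9 and 435.6 in Ept9. Both lines were well below both others, with a log2 difference of -0.61 ± 0.10 (SE; adjusted p = 0.137), -0.58 in Ept2 and -0.64 in Ept6. Orc6, a subunit of the origin recognition complex that licenses DNA replication, gave 104.3 to 165.6 in the chromosome 3 lines and 167.7 to 256.2 in the others (-0.46; adjusted p = 0.597). The brightest Orc6 probe set had -0.05 in Ept2 and -0.26 in Ept6, and a further one -0.46 and -0.10. In both of these the arrays of the groups overlapped. Shld1, on chromosome 3 at gene 2386, is part of the shieldin complex that protects broken DNA ends, and it gave 18.9, 19.7 and 24.1 in Ept2 and 18.3, 23.0 and 32.3 in Ept6, against 33.8 to 51.5 in Ept1 and Ept9 (-0.62 ± 0.11, SE; adjusted p = 0.190).

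Grm6 and Gabbr2, both dim, had the larger differences on the higher side. Grm6, a metabotropic glutamate receptor best known from the retina, gave 46.3 to 76.3 in Ept2 and Ept6 and 4.4 to 41.5 in Ept1 and Ept9, or 1.39 ± 0.22 (SE; adjusted p = 0.137). Gabbr2, a subunit of the GABA-B receptor, gave 23.1 to 77.5 in Ept2 and Ept6 and 9.8 to 15.0 in Ept1 and Ept9, or 1.14 ± 0.18 (SE; adjusted p = 0.137). With 1 in place of 16 added to the signal these were 2.37 for Grm6 and 1.83 for Gabbr2, and with 64 they were 0.66 and 0.54. Both had similar values in Ept2 and Ept6 (1.48 and 1.31 for Grm6, 1.17 and 1.10 for Gabbr2). A brighter probe set of Gabbr2 had 0.44 in Ept2 and 0.01 in Ept6. The further probe sets of Grm6, also dim, had 0.58 in Ept2 and 0.88 in Ept6, and -0.13 and 0.26. In both of these the arrays of the groups overlapped.

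Gja1, which encodes connexin 43, the gap junction protein of the folliculostellate network, was bright and differed by little. It gave 1171, 1095 and 989.9 in Ept2 and 979.7, 1007 and 923.6 in Ept6, against 826.5, 911.7 and 842.2 in Ept1 and 737.2, 789.5 and 825.0 in Ept9, or 0.32 ± 0.07 (SE; adjusted p = 0.395). Guca2b, which encodes uroguanylin, a ligand of guanylate cyclase C, gave 1092, 1044 and 1163 in Ept2 and 802.4, 928.4 and 769.3 in Ept6, against 568.6 to 765.0 in Ept1 and Ept9. Its log2 difference was 0.75 in Ept2 and 0.35 in Ept6 (0.55 ± 0.09 for both, SE; adjusted p = 0.155), and C7h12orf75 had the same grading, with 0.75 and 0.36. The neuronal calcium sensor gene Vsnl1 was at 0.73 in Ept2 and 0.42 in Ept6. The remaining higher genes were Smim5 (1.03), Mybpc2 (0.53), which encodes a myosin-binding protein of fast muscle, and Plch2 (0.33), a phospholipase C.

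Among the remaining lower genes Erap1 and Mlec were bright. Erap1, the endoplasmic reticulum aminopeptidase that trims peptides for MHC class I, gave 1885 to 2792 in Ept2 and Ept6, against 2939 to 3439 in Ept1 and Ept9 (-0.39; adjusted p = 0.453). Mlec, which encodes the lectin malectin of the same compartment, gave 463.1 to 545.3 in Ept2 and Ept6 (-0.27; adjusted p = 0.394). It gave 573.7 to 587.5 in Ept1 and 658.1 to 671.9 in Ept9, so Ept9 stood above the other lines. Ept2 minus Ept1 was -0.12 and Ept6 minus Ept1 -0.23, whereas the differences from Ept9 were -0.32 and -0.42. A brighter Mlec probe set gave 1200 to 1385 in Ept2 and Ept6, 1026 to 1352 in Ept1 and 1492 to 1678 in Ept9. The dim genes were Ninj2 (-1.26), the T cell kinase gene Txk (-0.96) and the kidney cadherin gene Cdh16 (-0.96), and Nxpe4 was at -0.38. Across the 20 genes named for non-overlapping arrays, 9 had further probe sets, 13 in all, of which 11 differed in the same direction and 2 reached an unadjusted p of 0.05.

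**Figure D3:**
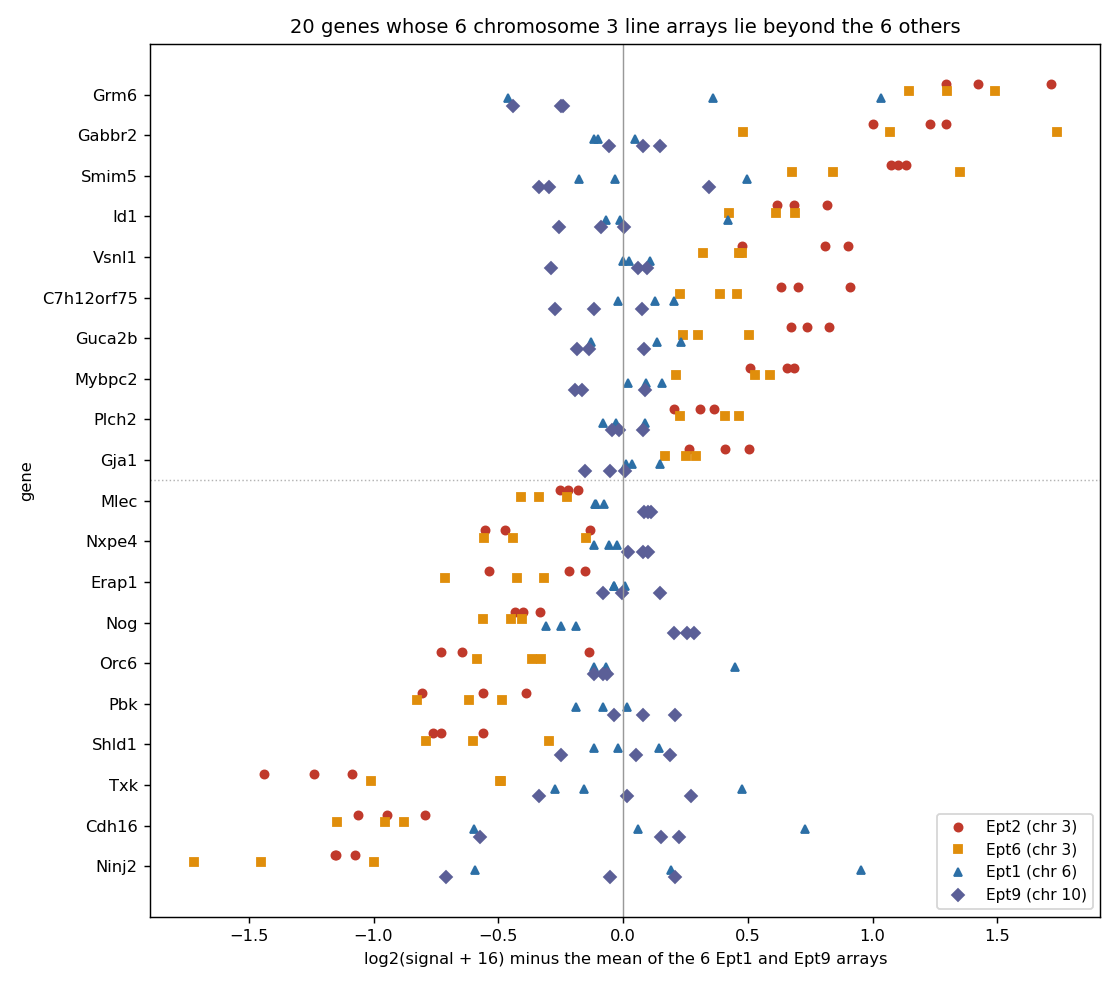
Each array's log2(signal + 16) minus the mean of the 6 Ept1 and Ept9 arrays, for the 10 genes per direction with the smallest p among genes whose chromosome 3 line arrays lie beyond all others; circles and squares are the 3 arrays each of Ept2 and Ept6, triangles and diamonds those of Ept1 and Ept9. The separation of circles and squares from the other symbols is what selected the genes. The scatter within a line is largest for the dim genes Grm6, Ninj2 and Cdh16, and Nog has Ept9 well above Ept1.

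Pituitary hormones did not pass the test in any of the comparisons of the chromosome 3 lines with the others. The probe sets of Prl, Gh1 and Cga are among the brightest of the array, and whether the signal is still proportional to transcript level there was not tested, so a small difference in them does not show equal levels. The pooled log2 difference was 0.02 for Prl, 0.06 for Gh1, 0.00 for Cga, 0.05 for Lhb, 0.17 for Tshb and 0.49 for Fshb, and Ept2 and Ept6 lay on opposite sides of the others for all of these but Fshb. Tshb, the thyrotropin subunit, gave 18692, 7187 and 9820 in Ept2 and 4554, 6526 and 5860 in Ept6, against 5666 to 9660 in Ept1 and Ept9, so that 1 Ept2 array stood out. Fshb, the follitropin subunit, whose gene lies on chromosome 3, gave 233.6 to 677.9 in Ept2 and 129.1 to 321.0 in Ept6, against 137.1 to 267.1 in Ept1 and Ept9. Pomc was dim and uneven, at 10.6 to 120.6 in the chromosome 3 lines and 13.1 to 151.9 in the others.

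Gene lists for the cell types of the gland and for the functions that estrogen treatment engages were then read with 1 probe set per gene. Over all 14217 genes the median log2 difference was 0.01, 52.1% lay above 0 and 47.9% below, and 3.47% were higher and 2.1% lower at an unadjusted p of 0.05. No member of any of the 20 lists passed the adjusted test of the pooled difference. The median was 0.03 for 11 genes of lactotrophs, -0.02 for 5 of somatotrophs, 0.05 for 9 of gonadotrophs, 0.12 for 5 of thyrotrophs and 0.12 for 6 of corticotrophs and melanotrophs. The lactotroph signal summed over its list, Prl included, was 100739 to 119205 in Ept2 and Ept6, against 102418 to 109113 in Ept1 and Ept9. In whole glands fewer cells of a type and less RNA per cell cannot be told apart.

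Of 28 cell cycle genes 23 lay below 0 (the share below 0 over all genes is 47.9%), with a median of -0.12. At an unadjusted p of 0.05, 6 were lower and none higher, against 2.1% and 3.47% of all genes. Below 0 in both lines were 19 of the 28, as were 3436 of all 14217 genes. Each line had a negative median, -0.14 in Ept2 and -0.06 in Ept6, against the same 6 arrays. Birc5, the mitotic survival protein survivin, gave 66.7, 97.7 and 82.9 in Ept2 and 115.5, 104.7 and 122.3 in Ept6, against 112.4, 136.8 and 117.6 in Ept1 and 226.6, 164.2 and 172.4 in Ept9. The difference was -0.57 (adjusted p = 0.269), with Ept2 lowest, Ept9 highest and Ept6 overlapping Ept1. Bub1, a kinase of the spindle checkpoint that lies on chromosome 3, was at -0.81 in Ept2 and -0.17 in Ept6, and cyclin A2 (Ccna2) and topoisomerase 2 alpha (Top2a) at -0.43 and -0.31 over both lines. The proliferation marker Mki67 was at -0.15 and did not reach an unadjusted p of 0.05. The summed signal of the list was 12589 to 13769 in Ept2 and 13190 to 14117 in Ept6, against 13754 to 14519 in Ept1 and 13795 to 15341 in Ept9. The groups overlapped, Ept6 lay partly within the range of Ept1, and the highest arrays were of Ept9 (15341 and 15328).

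Markers of cells other than the hormone producers were uneven between the lines. Of 11 leukocyte genes 8 lay below 0 in both lines, as did 3436 of all 14217 genes, both lines being read against the same 6 arrays, with a median of -0.18 and 1, Ptprc, lower at an unadjusted p of 0.05 (-0.32), and their summed signal was 14817 to 25035 in Ept2 and Ept6, against 19320 to 24902 in Ept1 and Ept9. A probe set of the listed leukocyte gene Aif1 went the other way, though the list reads this gene from a brighter one. It gave 107.2 to 137.3 in Ept2 and Ept6, against 33.3 to 98.2 in Ept1 and 93.3 to 101.3 in Ept9 (0.59; adjusted p = 0.640). The fibroblast and pericyte list had a median of -0.23 over 11 genes. In that list Pdgfra, the platelet-derived growth factor receptor of fibroblasts, was at -0.91 with dim signals of 10.8 to 45.7 in Ept2 and Ept6, against 39.4 to 69.5 in Ept1 and Ept9 (adjusted p = 0.137), while the matrix proteoglycan gene Dcn was at 0.55. Beta-globin (Hbb) was at -0.02 in Ept2 and -0.50 in Ept6. The part of these cells in the differences above was not tested.

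The summed signal of the genes of oxidative stress and iron handling was 5981 to 7607 in Ept2 and 9014 to 10717 in Ept6, against 7305 to 8552 in Ept1 and 12603 to 16264 in Ept9. Ept9 stood above the 3 other lines, and Ept2 overlapped Ept1. Of 11 genes 9 lay below 0 in the pooled comparison, against 47.9% of all genes. At an unadjusted p of 0.05, 4 were lower, namely Hmox1, Akr1b8, Slc40a1 and Gpnmb, against 2.1% of all genes. Only 3 of the 11 lay below 0 in both lines, as did 3436 of all 14217 genes, so the list was not lower in the 2 lines alike. Heme oxygenase 1 (Hmox1) was at -2.11 in Ept2 (adjusted p = 0.110) and -0.06 in Ept6, and Akr1b8, an aldo-keto reductase, at -2.09 (adjusted p = 0.0254) and 0.18, against the same 6 arrays. Akr1b8 gave 59.8, 82.9 and 75.6 in Ept2 and 456.4, 335.4 and 452.2 in Ept6, against 124.7, 135.6 and 50.3 in Ept1 and 1322, 1131 and 1282 in Ept9, and Ept2 minus Ept6 was -2.27 (adjusted p = 0.0192). Ept1 and Ept9 were far apart for both genes: Ept2 minus Ept1 was -0.77 for Hmox1 and -0.35 for Akr1b8, whereas Ept2 minus Ept9 was -3.46 and -3.83.

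In the TGF-beta and BMP list the median over 13 genes was 0.01, and Id1 and Id3 were higher at an unadjusted p of 0.05. Id3, a second target of BMP signalling, gave 373.9, 456.5 and 371.9 in Ept2 and 587.0, 407.7 and 545.5 in Ept6, against 321.4 to 418.2 in Ept1 and Ept9 (0.31). The arrays overlapped, and Id2 was at -0.01, Smad7 at 0.28 and Bmp4 at -0.07. Of 60 measured genes of a list of pituitary and growth genes placed on chromosome 3, 40 lay above 0 with a median of 0.12. Over all genes 52.1% lay above 0. At an unadjusted p of 0.05, 7 were higher and 5 lower, against 3.47% and 2.1% of all genes. Of all probe sets on chromosome 3, 7.86% passed that bound in either direction, against 5.51% on other chromosomes. Read by line, 21 of the 60 lay below 0 in Ept2 and 24 in Ept6, with 11 below 0 in both. Bcl2l1, which encodes the survival protein Bcl-xL and lies 3 places from Id1 in the gene order, at gene 2729, had 0.46 in Ept2 and 0.44 in Ept6. Its brightest probe set gave 374.7 to 587.6 in the chromosome 3 lines and 262.8 to 406.5 in the others, and its 2 dim probe sets were at 0.05 and -0.09. Other genes near Id1 were uneven in the pooled comparison. Cox4i2, which lies between Id1 and Bcl2l1, was at -0.24, the brightest Hm13 probe set at -0.01 and Mcts2 at 0.07 and 0.15. A dim Rem1 probe set and the dim Foxs1 were higher, at 0.67 and 0.79. None of these other genes reached the unadjusted bound of 0.05 in the limma test. The brightest Bcl2l1 probe set did reach it, with a pooled difference of 0.45, and the 2 dim Bcl2l1 probe sets did not. A shared local shift was not tested. Genes of the estrogen response, the secretory granule and endoplasmic reticulum chaperones had medians of -0.01, 0.00 and -0.01.

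**Figure D4:**
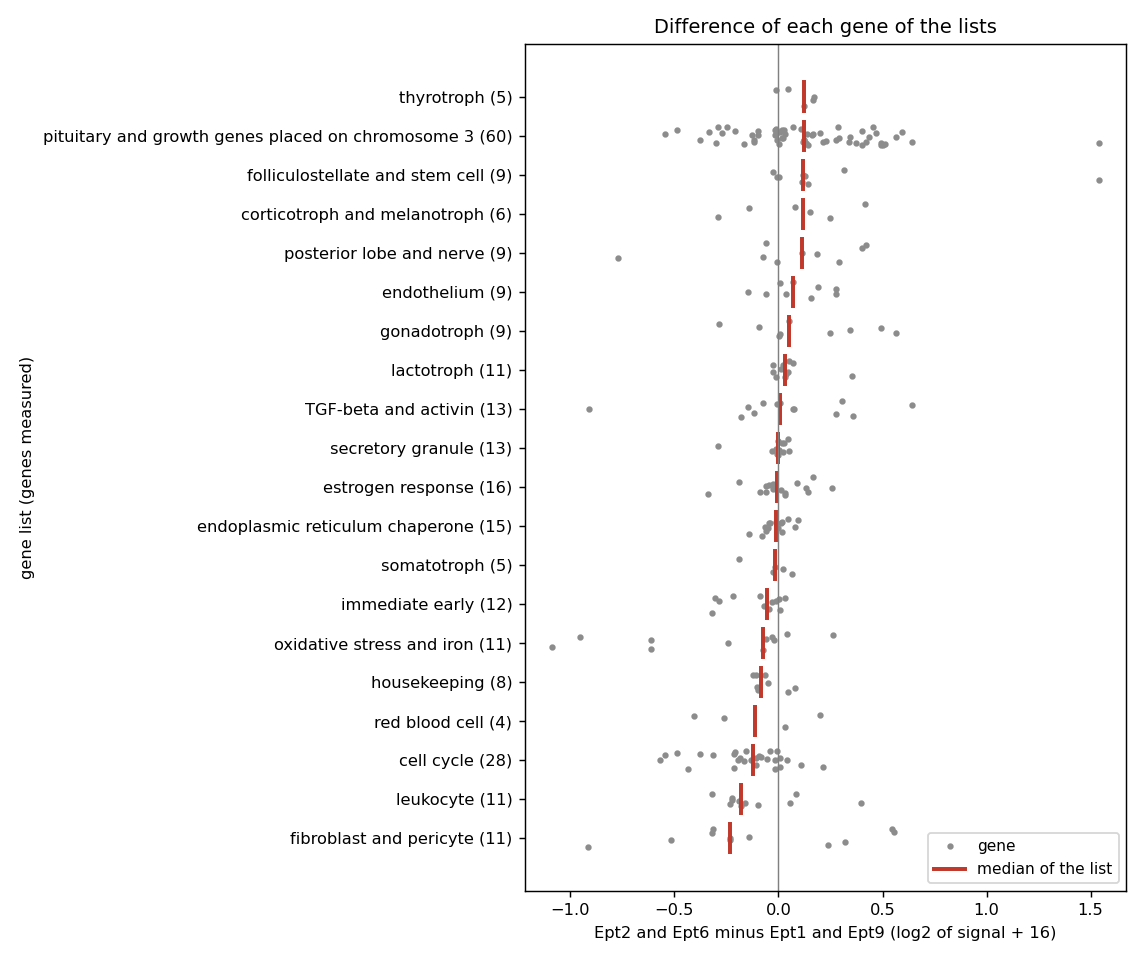
Log2 difference of the chromosome 3 lines (mean of Ept2 and Ept6) from the others (mean of Ept1 and Ept9) for every measured gene of the 20 lists, with the list median as a bar and the number of genes measured in brackets. No gene shown passed the adjusted test of this difference. The medians of the 5 hormone cell lists run from -0.02 to 0.12 and those of granule genes and chaperones are 0.00 and -0.01, 23 of 28 cell cycle genes lie below 0 with a median of -0.12, and Lcn2, high in Ept6 alone, is the point at 1.54.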

How the data were processed

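The authors deposited 1 linear intensity value (signal) per probe set and array, scaled so that the mean of every array, trimmed by 2% at each end, is the same. How background was corrected, and with which software, is not given in the sources used here, and the paper found for the series describes other animals. The number of arrays limits precision. Signals were taken as log2(signal + 16) without rescaling. After removal of 57 controls, 31042 probe sets were tested, dim ones included. A gene symbol was given by the platform annotation to 20826 probe sets, several to 436 and none to 9780, and chromosomes and gene order came from the GRCr8 RefSeq annotation (20760 probe sets). Beyond the promoter windows shown, no coordinate of a gene was taken from it. Tests used limma 3.58.1 in R 4.3.3 (lmFit and eBayes, 1 mean per line over all 12 arrays) with Benjamini-Hochberg adjustment over all probe sets and a threshold of 0.05. The contrasts were the mean of Ept2 and Ept6 minus the mean of Ept1 and Ept9, each chromosome 3 line minus the mean of Ept1 and Ept9, and Ept2 minus Ept6. A pooled call also asked for the same sign in Ept2 and Ept6. An exact permutation test over 924 splits was used for the Gapdh measure.

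Named genes were those called, the called genes on chromosome 3, called list members and the hormones. As fewer than 5 genes per direction were called with non-overlapping arrays, the list was filled to 10 per direction with the smallest unadjusted p among genes with non-overlapping arrays. Genes named beyond this rule (the members of lists, Spint1, Ptprj, Iftap, Harbi1, Lcn2, Arhgap1 and Dido1) were chosen after their values were seen. Members and lists were chosen with earlier results of these data known. The scripts were tested on simulated data. The settings varied were the pseudocount (1 or 64), the scaling (quantile or median), a filter on dim probe sets at the 40th or 60th percentile, a replicate block, an eBayes trend, array weights, each array left out, a fit of 2 groups of 6 arrays without or with the line as a random block, and 3 stricter rules for a shared call.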

Additional observations from a re-analysis of the deposited data

Results flagged for a closer look

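For 5 of the 9 called probe sets the chromosome 3 lines differed from each other in the test of Ept2 minus Ept6 (log2): Sardh by -1.29, Fubp3 by 2.27, 1375676_at by 2.03, 1377885_at by -1.44 and 1380365_at by -1.68, with adjusted limma p-values of 0.00425, 0.000194, 0.00425, 0.0038 and 0.00765.

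Single arrays stood far from the other 5 of their side for 5 named genes, measured as the gap to the nearest array divided by the range of the 6. In the chromosome 3 lines these were Ept2 array 2 for Prl (signal 51767, ratio 0.730; the others at most 45078) and Ept6 array 2 for Mybpc2 (72.7, ratio 0.626; the others at least 92.9). In Ept1 and Ept9 they were Ept1 array 2 for Orc6 (256.2, ratio 0.908; the others 167.7 to 174.5), Ept9 array 2 for Vsnl1 (34.6, ratio 0.728; the others 45.8 to 50.6) and Ept9 array 2 for 1380365_at (82.1, ratio 0.643; the others 119.6 to 146.3). Among the groups looked at, 72 in all, chance flags about 1 in 20.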

How the results depend on the processing

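The pooled count of 9 was 14 with a pseudocount of 64, 18 and 33 with filters at the 40th and 60th percentile, and 35 with an eBayes trend. It was 1 in both fits of 2 groups of 6 arrays (without a line term and with the line as a random block), 3 where each line had to pass alone, and 1 where all 4 line pairs had to pass or all arrays had to lie apart. Of the calls under the filters and the trend, 5 of 18, 7 of 33 and 6 of 35 had arrays that did not overlap. Nog, Id1, Pbk, Guca2b and C7h12orf75 passed under both filters and the trend (adjusted p for Nog 0.0174, 0.00381 and 0.00364, for Id1 0.0444, 0.0102 and 0.0162). The unnamed 1375794_at was removed by the filters and called under the other fits. For Ept2 the count of 12 was 40 (pseudocount 64), 64 and 113 (filters) and 108 (trend); for Ept6 the count of 10 was 24 (filter at the 60th percentile) and 31 (trend); for Ept2 against Ept6 the count of 33 was 71, 122, 299 and 273 under the same settings as for Ept2. Without 1 array the pooled count ran from 6 to 12, that of Ept2 from 4 to 15 (4 without Ept9 array 3), that of Ept6 from 8 to 15, that of Ept2 against Ept6 from 13 to 29 (13 without Ept2 array 3), and the share of called genes on chromosome 3 from 28.6% to 60%. That share was 0% of 2 genes where each line had to pass alone. It had no value where all line pairs had to pass or arrays had to lie apart, which left no gene with a chromosome. The cause of these shifts was not tested, except that a filter leaves fewer probe sets to adjust over.

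With the replicate number as a block the pooled count was 6, that of Ept2 6, that of Ept6 9 and that of Ept2 against Ept6 11, and the share on chromosome 3 was 40%. None of 18 pairs of arrays with the same number correlated above 0.1 in their deviations from the line means (-0.14 to 0.08), so the numbers do not pair the arrays.

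Signs turned only for hormones near 0 or uneven between arrays. Cga was -0.0011 with quantile normalization, -0.041 with median centring, -0.0023 with array weights and -0.024 to 0.043 without 1 array. Without 1 array Prl was -0.014 to 0.046 (-0.014 without Ept2 array 2), Lhb -0.030 to 0.111, Tshb -0.022 to 0.322 and Pomc -0.398 to 0.209, and Prl was -0.021 with median centring. Dim probe sets limit the precision.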
